A study of Homo sapiens with 2 samples.

Results

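The mitotic G2/M genes are 40 protein-coding genes that cells use to enter, run and leave mitosis. The rule takes them by name for their known roles and uses no measured value. They were nonetheless chosen with earlier results of these data known. All 40 were found in a table of 44591 genes. All 40 also passed the minimum of 10 reads summed over both libraries, which 19840 genes passed, and each held at least 100 reads. The cells were HSC-1, an established line from a cutaneous squamous cell carcinoma, a cancer of skin keratinocytes. Cells were transfected with siNC, the negative control siRNA, or with siLINP1, an siRNA against the long non-coding RNA LINP1. Total RNA was sequenced from 1 library of each group. Both groups received transfection reagent and a serum-free step followed by medium with serum, so the siNC library is a transfection control and not untreated cells. The labels and the study's methods give different cell densities and harvest times for this step, and neither says which siLINP1 oligo was used. With 1 library per group, no difference has a replicate check and no p-value was computed. The values below compare 2 libraries, not 2 conditions.

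The siNC library held 18829544 counted reads and the siLINP1 library 15383081. LINP1 (chr10:6779344-6780901, GRCh37) had 167 reads in siNC and 23 in siLINP1. On the log2 scale this is −2.65, with a 95% interval from −3.35 to −2.02. Of 10 squamous keratinocyte markers, 5 lay under 1 RPKM in both libraries, among them KRT5 with 32 and 24 reads, TP63 with 6 and 8, and CDH1 with 14 and 3. Others of the list were read more, with SFN at 10.7 and 6.82 RPKM in siNC and siLINP1, KRT14 at 7.89 and 3.46, DSP at 3.79 and 3.40, and KRT17 at 1.99 and 2.23. The markers did not clearly bear out the labelled squamous type. KRT5, TP63, CDH1, DSG3 and PKP1 were low or near 0, and KRT6A stood at 0.672 and 1.19 RPKM. The identity of the line was not tested here. The study's supplement holds a short tandem repeat report in which an HSC-1 cell sample fully matched the HSC-1 profile of a cell bank. That report is on a cell sample and not on these libraries. The summed RPKM of the 10 squamous markers was 26.0 in siNC and 18.0 in siLINP1, and that of 5 mesenchymal markers was 1554 and 1308, nearly all of it VIM (1519 and 1278 RPKM). The other mesenchymal markers were CDH2 at 22.2 and 15.9 RPKM, FN1 at 6.80 and 5.44, ZEB1 at 4.69 and 7.27, and COL1A1 at 1.70 and 0.866. The part of these marker levels in the mitotic values was not tested.

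A dividing cell enters mitosis when the kinase CDK1, bound to cyclin B, is switched on by CDC25 phosphatases and polo-like and aurora kinases. The spindle checkpoint then holds the anaphase-promoting complex (APC/C) through its activator CDC20 until every chromosome is attached, after which securin and cyclin B are destroyed, sister chromatids part and the cell divides. Transcripts of these genes build up late in the cycle, driven by B-MYB bound to the MuvB complex and by FOXM1 at a promoter element called the CHR, and by NF-Y at CCAAT boxes, while the DREAM complex represses the same promoters in resting cells. They are widely used as markers of proliferating tumour cells. In a bulk sample, a smaller share of cells in G2 or mitosis and less of these RNAs in each such cell cannot be told apart.

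To show the promoter elements beside the values that follow, the proximal promoters of 8 members were read from RefSeq (GRCh38.p14), from 110 bases before to 10 bases after the first transcribed base, 5′ to 3′ on the gene's strand. The 4 members CDK1, PTTG1, CDC20 and PLK1 were among those lowest in siLINP1 relative to siNC, and CCNB1, CCNB2, PRC1 and CENPA are shown beside them because they stood closer to equal between the libraries. Capitals mark TTTGAA, the core letters of the CHR, and CCAAT, on either strand (TTCAAA and ATTGG). CDK1 and PTTG1 had 2 starts each, and for them the window with the most matches of these letters is shown.
CDK1 (chr10:60778368-60778487, plus strand): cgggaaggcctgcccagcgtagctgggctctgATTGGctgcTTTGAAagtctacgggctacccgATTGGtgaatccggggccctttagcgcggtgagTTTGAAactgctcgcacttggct
PTTG1 (chr5:160421745-160421864, plus strand): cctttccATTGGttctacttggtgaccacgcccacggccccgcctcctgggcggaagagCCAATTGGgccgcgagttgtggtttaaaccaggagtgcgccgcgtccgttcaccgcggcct
CDC20 (chr1:43358871-43358990, plus strand): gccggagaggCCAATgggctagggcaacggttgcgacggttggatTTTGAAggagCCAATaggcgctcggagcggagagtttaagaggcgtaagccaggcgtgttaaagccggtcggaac
PLK1 (chr16:23678779-23678898, plus strand): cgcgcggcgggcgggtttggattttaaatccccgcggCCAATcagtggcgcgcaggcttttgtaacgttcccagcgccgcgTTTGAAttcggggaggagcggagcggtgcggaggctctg
CCNB1 (chr5:69167040-69167159, plus strand): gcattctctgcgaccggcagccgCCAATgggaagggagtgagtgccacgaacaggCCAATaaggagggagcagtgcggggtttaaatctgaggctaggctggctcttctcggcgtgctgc
CCNB2 (chr15:59105036-59105155, plus strand): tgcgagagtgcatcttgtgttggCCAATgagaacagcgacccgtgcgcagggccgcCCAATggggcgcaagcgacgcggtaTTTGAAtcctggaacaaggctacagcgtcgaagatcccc
PRC1 (chr15:90994526-90994645, minus strand): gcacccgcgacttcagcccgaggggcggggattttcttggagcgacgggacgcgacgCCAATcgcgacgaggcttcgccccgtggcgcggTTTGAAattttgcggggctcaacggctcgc
CENPA (chr2:26785946-26786065, plus strand): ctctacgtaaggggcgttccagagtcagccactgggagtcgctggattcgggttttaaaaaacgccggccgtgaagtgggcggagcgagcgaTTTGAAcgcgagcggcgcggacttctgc
The CDK1 window held TTTGAA 2 times and ATTGG 2 times, and the PLK1 window held each motif 1 time. The CCNB2 window, of a gene with nearly equal values in both libraries, held 2 CCAAT boxes and, 29 bases before the start as in PLK1, TTTGAA. The PTTG1 and CCNB1 windows held CCAAT letters and no TTTGAA, and the CENPA window held TTTGAA and no CCAAT. Only these exact letters were searched, so a window without TTTGAA was not shown to lack a CHR.

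The mitotic genes were lower in the siLINP1 library as a group, by a modest amount. The median log2 fold change of the 40 genes, siLINP1 over siNC, was −0.23, which is 14.8% lower, and the middle of the genes (quartile 1 to quartile 3) ran from −0.36 to −0.11. Over all 19840 genes tested the median was −0.02, so the mitotic median lay 0.21 below it on the log2 scale. When the libraries were scaled by total count instead, the median of the 40 genes was −0.15, or 9.79% lower. Here a log2 fold change compares read counts after each library was divided by its size factor (median of ratios over genes). The 95% interval beside it comes from the exact (Clopper-Pearson) interval of how a gene's reads were split between the libraries, and covers counting error only.

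Of the 40 genes, 34 had a log2 fold change below 0, against 52.2% of all genes tested and 53.2% of the 13336 genes with at least 100 reads. The interval lay below 0 for 29 members, above 0 for 1 member (TPX2) and spanned 0 for 10. Among all genes tested the interval lay below 0 for 25.6% and above 0 for 23.0%. Since all members were well read, the nearer background is that of genes with at least 100 reads, of which 33.4% had the interval below 0 and 28.8% above. With total-count scaling, 19.7% of all genes tested lay below and 28.4% above, with 23 members below and 3 above. The members no longer below were CCNB1, CDC25C, KIF4A, CENPE, CDCA8 and CKAP2, and those newly above were PRC1 and ECT2. The members' side was therefore mostly lower under both scalings.

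Large differences were rare among them. Only 3 members, PTTG1, CDK1 and TTK, were lower by more than 1.5-fold, against 13.0% of all genes tested and 6.77% of genes with at least 100 reads, so the count of 3 in 40 was near the latter background. TTK was not past 1.5-fold with total-count scaling (−0.53) or with size factors from genes with at least 1000 reads (−0.58), which left 2 members. None of the 40 was higher by more than 1.5-fold, against 14.4% of all genes tested and 8.72% of those with at least 100 reads. PTTG1 was the 1 member whose whole interval lay past 1.5-fold lower, and with total-count scaling it did not (−0.68, interval −0.80 to −0.55). Most members differed by less than 1.5-fold, mainly in the same direction. Of them, 17 lay under quartile 1 of genes with at least 100 reads and 1 lay over quartile 3. Their log2 fold changes had an SD of 0.23 across genes, set beside a median interval half-width of 0.13, and genes with at least 1000 reads had an SD of 0.38.

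**Figure D1:**
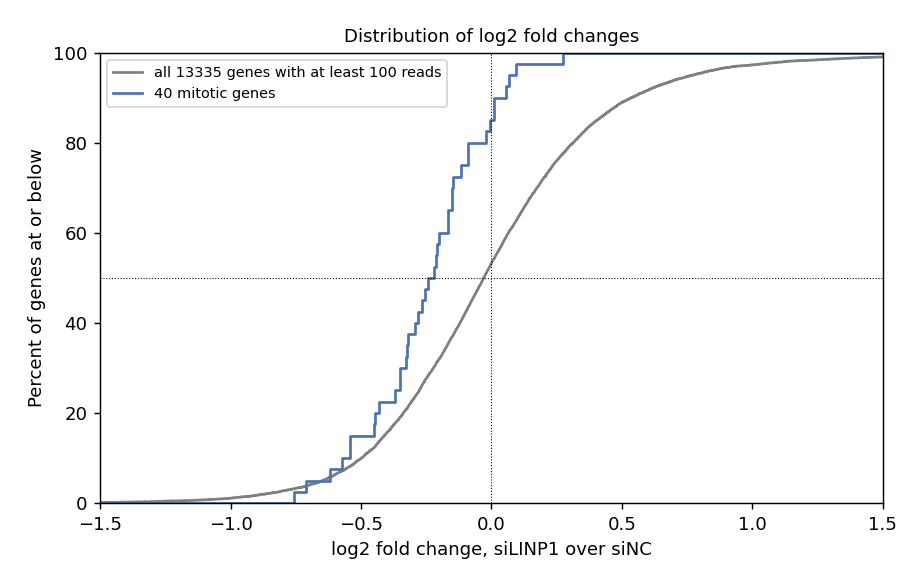
Cumulative percent of genes (y axis) at or below each log2 fold change, siLINP1 over siNC (x axis), for the 40 mitotic genes (blue) and for the 13335 genes with at least 100 reads and a read in both libraries (grey); the dotted lines mark 0 and 50%. The blue line crosses 50% near −0.23 and stands to the left of the grey line over most of its range, and the curves meet near −0.6.

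Counted together, the 40 genes took 67679 reads in siNC, or 0.359% of the library (95% exact binomial interval 0.357 to 0.362%), and 49392 reads in siLINP1, or 0.321% (0.318 to 0.324%). The log2 fold change of the scaled sums was −0.24 (interval −0.26 to −0.23). Levels between genes are compared here as RPKM, the reads divided by gene length and by the library's total count, as deposited. The members' median was 20.2 RPKM in siNC and 17.9 in siLINP1, above the median of all genes tested, which was 4.10 and 4.49. In siNC the levels ran from 4.46 RPKM for CENPE to 130 RPKM for CDC20, and the 5 members with most reads (CDC25B, TOP2A, MKI67, CDC20 and CENPF) held 34.7% of the members' reads. Across the 40 genes the log2 fold change had a Spearman rho of 0.16 with log2 gene length and −0.17 with log2 RPKM in siNC, set beside 0.21 and −0.24 across genes with at least 100 reads; these are descriptions across genes that share both libraries.

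**Figure D2:**
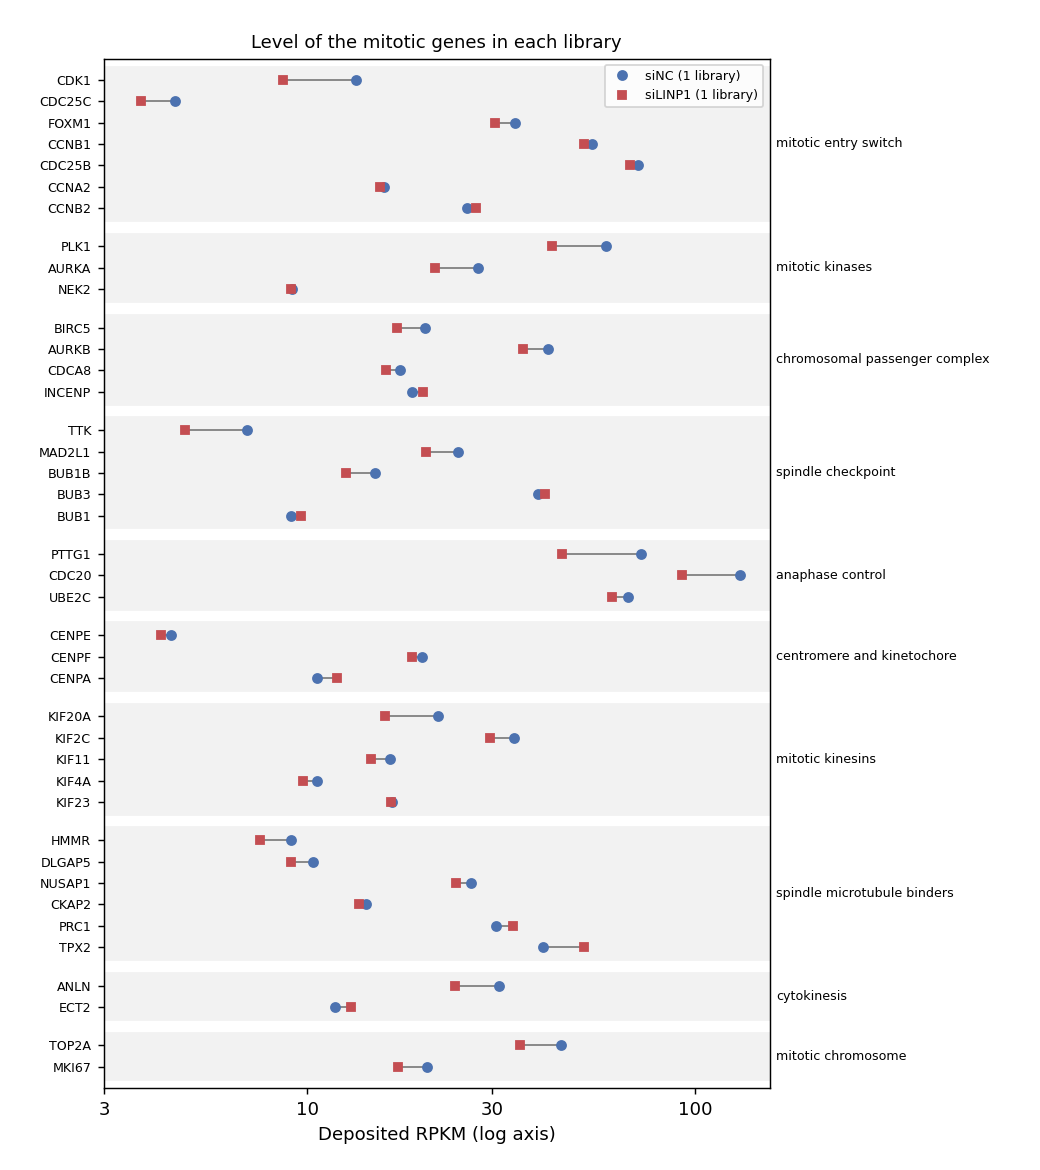
Deposited RPKM (log axis) of each of the 40 mitotic genes in the siNC library (blue circles) and the siLINP1 library (red squares), grouped by role, with a line joining both values. CDC20 is highest at 130 and 92.6 RPKM, and the widest gaps belong to CDK1, PTTG1 and TTK. TPX2 has the widest gap among the genes whose red square lies to the right.

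Among the 7 genes of the entry switch the kinase subunit and its cyclins went apart. CDK1 (chr10:62538089-62554610, GRCh37), the catalytic partner of cyclins A and B, had 837 and 442 reads in the siNC and siLINP1 libraries, or 13.4 and 8.66 RPKM. Its log2 fold change was −0.71 (−0.88 to −0.54), 38.9% lower. CCNB1, cyclin B1, had 2215 and 1723 reads at 54.2 and 51.6 RPKM, with a log2 fold change of −0.15 (−0.24 to −0.06). The related cyclins CCNA2 (852 and 679 reads) and CCNB2 (753 and 649 reads) had intervals that spanned 0, CCNB2 almost centred on it at −0.16 to 0.15. Because RPKM divides by the total count and the fold change by the size factor, a gene near 0, as CCNB2 at 25.8 and 27.2 RPKM, can stand slightly higher in siLINP1 by RPKM.

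The other entry genes activate CDK1 or drive transcription of the set. CDC25B, a phosphatase that removes the inhibitory phosphates of CDK1, was the member with most reads and had 5856 and 4559 reads at 71.2 and 67.8 RPKM, a log2 fold change of −0.15 (−0.21 to −0.10). Its relative CDC25C was among the 3 members with the lowest level, with 221 and 148 reads at 4.57 and 3.74 RPKM, −0.37 (−0.68 to −0.06). FOXM1, a transcription factor of late cell cycle genes, had 2354 and 1707 reads at 34.3 and 30.4 RPKM, −0.25 (−0.34 to −0.16). In this group 5 of 7 intervals lay below 0 and the median was −0.15. With total-count scaling 3 of 7 did, without CCNB1 and CDC25C, and the median was −0.07.

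The mitotic kinases PLK1 and AURKA were lower to a larger extent than most members. PLK1 (chr16:23690093-23701688, GRCh37), which triggers CDK1 activation, centrosome maturation and cytokinesis, had 2523 and 1499 reads at 58.8 and 42.8 RPKM, a log2 fold change of −0.54 (−0.63 to −0.45). AURKA, the centrosome and spindle kinase, had 1342 and 852 reads at 27.5 and 21.4 RPKM, −0.45 (−0.57 to −0.32). NEK2, a kinase that splits the centrosomes, had 564 and 458 reads and an interval across 0 (−0.27 to 0.09).

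In the chromosomal passenger complex, which corrects faulty attachments and steers cytokinesis, 3 of 4 subunits were lower and the scaffold was level. BIRC5, survivin, had 1021 and 707 reads at 20.1 and 17.0 RPKM, with a log2 fold change of −0.32 (−0.46 to −0.18). AURKB, the kinase subunit, had 1192 and 842 reads at 41.7 and 36.0 RPKM, −0.29 (−0.42 to −0.16). CDCA8, borealin, had 810 and 609 reads at 17.3 and 15.9 RPKM, −0.20 (−0.36 to −0.05), an interval that spanned 0 with total-count scaling. INCENP, the scaffold that holds the other subunits together, had 1454 and 1267 reads and an interval of −0.10 to 0.12.

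The spindle checkpoint genes split in a like manner. TTK (chr6:80714322-80752244, GRCh37), the kinase that starts checkpoint signalling at unattached kinetochores, had 399 and 225 reads at 7.01 and 4.84 RPKM, a log2 fold change of −0.62 (−0.86 to −0.38), 34.8% lower. MAD2L1, the MAD2 protein that binds CDC20, had 662 and 449 reads at 24.4 and 20.3 RPKM, −0.35 (−0.53 to −0.18). BUB1B, the BUBR1 component of the inhibitor of the APC/C, had 1052 and 727 reads at 14.9 and 12.6 RPKM, −0.32 (−0.46 to −0.19). BUB1 and BUB3, a kinase and its kinetochore adaptor, stood near equal: BUB1 had 621 and 541 reads (−0.16 to 0.18) and BUB3 had 2051 and 1748 reads (−0.11 to 0.07).

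The 3 anaphase control genes were lower in siLINP1, and their median of −0.57 was the lowest of the 10 roles. PTTG1 (chr5:159848814-159855751, GRCh37) encodes securin, the inhibitor of separase. It had 1584 and 810 reads at 72.5 and 45.4 RPKM, a log2 fold change of −0.76 (−0.88 to −0.64), 40.9% lower. CDC20 (chr1:43824626-43828874, GRCh37), the coactivator of the APC/C and the member with the highest level, had 4102 and 2385 reads at 130 and 92.6 RPKM, −0.57 (−0.65 to −0.50). UBE2C, the ubiquitin-conjugating enzyme of the APC/C, was less far below 0, with 1592 and 1183 reads at 67.2 and 61.1 RPKM, −0.22 (−0.33 to −0.11).

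Of the 3 centromere and kinetochore members, CENPF and CENPE were lower by small amounts, and the median was −0.17. CENPF, a kinetochore protein that accumulates in G2, had 3827 and 2951 reads at 19.7 and 18.6 RPKM, with a log2 fold change of −0.17 (−0.24 to −0.10). CENPE, the kinetochore kinesin and the member with the lowest level, had 724 and 558 reads at 4.46 and 4.21 RPKM, −0.17 with an interval whose upper end lay just below 0 and which spanned 0 under each of the 4 other scalings. CENPA, the histone H3 variant that marks centromeres, had 285 and 263 reads and an interval of −0.15 to 0.34.

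The mitotic kinesins, motors that build and divide the spindle, were lower in 4 of 5 cases by their intervals. KIF20A (chr5:137514417-137523404, GRCh37), a motor of the central spindle, stood farthest from equal, with 1425 and 846 reads at 21.8 and 15.8 RPKM and a log2 fold change of −0.54 (−0.67 to −0.42). KIF2C, a microtubule depolymerase at centromeres, had 2102 and 1497 reads at 34.0 and 29.7 RPKM, −0.28 (−0.38 to −0.18). KIF11, which pushes the spindle poles apart, had 1565 and 1144 reads at 16.4 and 14.6 RPKM, −0.24 (−0.35 to −0.13). KIF4A, a chromosome-bound motor, had 901 and 674 reads at 10.6 and 9.73 RPKM, −0.21 (−0.36 to −0.06), but with total-count scaling its interval spanned 0, which left 3 of 5. KIF23, a centralspindlin motor, had 1163 and 945 reads and an interval of −0.22 to 0.04.

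The spindle microtubule binders held TPX2, the member that was higher beyond counting error under each scaling. TPX2 (chr20:30326904-30389603, GRCh37), which nucleates spindle microtubules and activates AURKA, had 2787 reads (40.4 RPKM) in siNC and 2912 (51.7 RPKM) in siLINP1. Its log2 fold change was 0.27 (0.20 to 0.35), so more of its reads came from the smaller library. HMMR, a spindle-pole protein, was lower with 539 and 366 reads at 9.11 and 7.57 RPKM, −0.35 (−0.54 to −0.15). DLGAP5, also called HURP, which stabilises kinetochore fibres, had 600 and 431 reads at 10.3 and 9.08 RPKM, −0.27 (−0.45 to −0.09).

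Of the remaining binders, NUSAP1, which bundles spindle microtubules, had 1225 and 915 reads at 26.5 and 24.2 RPKM, −0.21 (−0.34 to −0.09). CKAP2, a microtubule stabiliser, had 1156 and 904 reads at 14.2 and 13.6 RPKM, −0.15 (−0.27 to −0.02), an interval that spanned 0 under each of the 4 other scalings. PRC1, which crosslinks the central spindle, had 1838 and 1667 reads and an interval of −0.03 to 0.16, which lay above 0 in 3 of the 4 other scalings. The reads of the 6 binders summed to 8145 and 7195, a log2 fold change of 0.03 (−0.02 to 0.08), since the reads of TPX2 offset those of the others.

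Both cytokinesis genes and both chromosome genes were well read. ANLN, anillin, the scaffold of the contractile ring, had 2807 and 1776 reads at 31.1 and 24.1 RPKM, a log2 fold change of −0.45 (−0.54 to −0.36). ECT2, the exchange factor that activates RhoA at the cleavage site, had 1001 and 901 reads and an interval of −0.07 to 0.19, which lay above 0 with total-count scaling. TOP2A, the topoisomerase that untangles sister chromatids, had 4887 and 3133 reads at 45.1 and 35.4 RPKM, −0.43 (−0.50 to −0.37). MKI67, the Ki-67 coat of mitotic chromosomes and a common proliferation marker, had 4790 and 3300 reads at 20.4 and 17.2 RPKM, −0.33 (−0.39 to −0.26).

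Within a library the reads of 1 gene over those of another do not depend on how the libraries are scaled, so partner genes were set against each other in 19 pairs. The pairs were chosen after their values were seen, so these ratios describe the libraries and were not tested. The ratio differed between the libraries beyond counting error in 15 pairs and spanned 0 in 4. Among single genes with at least 100 reads, 33.4% had the interval below 0 and 28.8% above. No share was computed for pairs of other genes, so the count of 15 cannot be read as a trait of mitotic partners. Which gene was put on top was part of that choice, so the side on which a ratio falls carries no direction for the set. The largest gap was between AURKA and its activator TPX2, whose RPKM ratio was 0.681 in siNC and 0.414 in siLINP1, a log2 difference of −0.72 (−0.87 to −0.57). The ratio of CDK1 to CCNB1 was 0.247 and 0.168 (−0.56, interval −0.75 to −0.37), and that of CDK1 to CCNA2 was 0.849 and 0.562. CDK1 transcripts thus stood lower relative to both cyclins.

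A like gap stood in other pairs. TTK over BUB1 was 0.773 in siNC and 0.500 in siLINP1 (−0.63, interval −0.92 to −0.33). KIF20A over PRC1, partners at the central spindle, was 0.713 and 0.466 (−0.61, interval −0.77 to −0.45), and ANLN over ECT2 was 2.63 and 1.85 (−0.51, interval −0.67 to −0.35). Each of the other 3 passenger subunits stood lower against INCENP, with AURKB over INCENP at 2.24 and 1.81. In the other direction UBE2C over CDC20 was 0.516 and 0.660 (0.35, interval 0.22 to 0.49), although both genes were lower in siLINP1. CENPE over CENPF was 0.226 in both libraries.

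**Figure D3:**
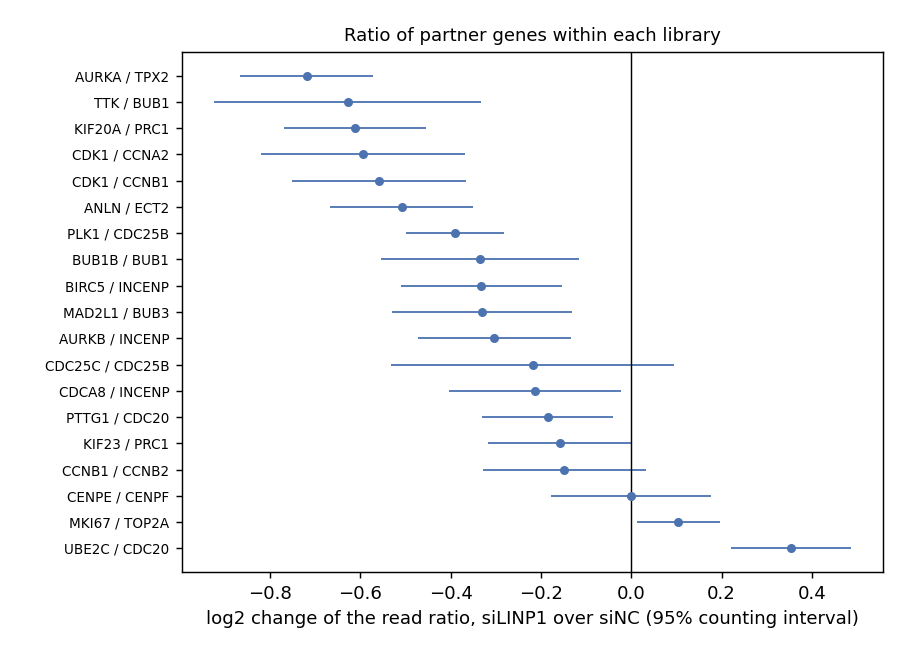
Log2 difference, siLINP1 over siNC, of the read ratio of 19 pairs of mitotic partner genes (x axis), with 95% counting intervals. The AURKA to TPX2 ratio lies farthest to the left at −0.72 and the UBE2C to CDC20 ratio farthest to the right at 0.35. Of the 19 intervals, 4 span 0, and the side of a pair depends on which gene was put on top.

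The promoters of the members share sequence letters that the rule did not use. RefSeq windows from 250 bases before to 50 bases after the start were matched for 33 of the 40 members (AURKA, BIRC5, BUB3, FOXM1, TPX2, TTK and UBE2C were not matched). TTTGAA, searched on both strands, lay in 22 of the 33 (66.7%), against 18.2% of 27305 genes, and CCAAT, searched likewise, lay in 28 (84.8%), against 39.7%. Both sets of letters lay in 20 members (60.6%), against 7.26% of genes. In the narrower window printed above, from 110 bases before to 10 after, both lay in 14 members (42.4%), among them CDK1, CDC20, PLK1, CCNB2 and PRC1, against 1.64% of genes. A gene with several starts was counted when any of its windows held the letters. The 27305 genes were all those with a window, without a filter on reads, while the members were all well read. No share was computed for well-read genes alone. Matches of the different motifs can overlap by an end letter, and CCAAT can overlap its own reverse complement, as in PTTG1.

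Holding these letters did not sort the members by their fold change in a simple way. The 22 members with TTTGAA had a median log2 fold change of −0.26 and the 11 without it −0.15, but the 28 with CCAAT had a median of −0.21 and the 5 without it −0.28. PTTG1 and KIF20A, which were among the 6 lowest members, held CCAAT and no TTTGAA. INCENP, PRC1 and CCNB2, with intervals across 0, held both near the start. A match is a description of letters and was not tested as a binding site. Members without TTTGAA can hold the CHR in other letters, which were not searched.

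Cell cycle genes outside the 40 were summarised in 7 lists, each given as its median minus the median of all genes tested. The background for the interval counts of every list is 33.4% below 0 and 28.8% above among genes with at least 100 reads. Among all genes tested it is 25.6% and 23.0%. For 48 other G2/M genes the difference was −0.12 (the 40 members had −0.21), with 27 intervals below 0 and 6 above. PBK, a mitotic kinase, had 473 and 241 reads (log2 fold change −0.76), and TUBB4B, a beta tubulin, had 10612 and 5671 (−0.69), while GAS2L3 had 515 and 752 (0.76) and G2E3 366 and 449 (0.50). For 48 kinetochore, cohesin and condensin genes the difference was −0.14, with 22 intervals below 0 and 8 above. There the kinetochore genes DSN1 (568 and 274 reads, −0.84) and CENPN (834 and 408, −0.82) were lowest, and ZW10 (250 and 535, 1.31) and CENPL (284 and 362, 0.56) were highest.

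The 17 genes listed with the APC/C, the machine that CDC20 activates, stood near the background at −0.03. The list holds subunits, the coactivator FZR1 and the conjugating enzymes UBE2S and UBE2D1. Of the intervals, 6 lay below 0 and 5 above. ANAPC11, the catalytic RING subunit of the APC/C, had 1340 and 763 reads (−0.60) and ANAPC16 1044 and 642 (−0.49). The highest were UBE2D1 with 197 and 267 (0.65) and ANAPC7 with 794 and 973 (0.50).

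The 17 DREAM and MYB-MuvB factors that act on mitotic promoters had a median 0.07 above that of all genes tested, with 4 intervals below 0 and 7 above. MYBL2, which encodes B-MYB, was lower like the members, with 2054 and 1534 reads at 39.3 and 35.9 RPKM, a log2 fold change of −0.21 (−0.31 to −0.12). Subunits of DREAM and MuvB other than the dimer partners did not have intervals below 0. E2F4 (2512 and 2238 reads), LIN9 (248 and 225), LIN54 (302 and 262), LIN52 (95 and 76) and RBBP4 (2044 and 1711) had intervals across 0. The intervals of E2F5 (310 and 357 reads, 0.41), RBL1 (339 and 366, 0.32) and RBL2 (846 and 810, 0.15) lay above 0. TFDP1, the dimer partner of E2F factors, was lowest with 2474 and 1274 reads (−0.75), followed by NFYC, a subunit of NF-Y, with 1451 and 921 (−0.45). LIN37, a MuvB subunit (211 and 305, 0.74), and MYBL1 (215 and 290, 0.64) were highest.

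Inhibitors of the cycle were the list farthest above the background, at 0.24 above the median of all genes tested for the 17 of 19 genes with at least 10 reads. Of these, 10 intervals lay above 0 and 6 below, and 6 genes were higher by more than 1.5-fold and 2 lower. Among genes with at least 100 reads, 28.8% of intervals lay above 0 and 33.4% below. Of those genes, 8.72% were higher by more than 1.5-fold and 6.77% lower. The 6 higher genes were CDKN2C, CDKN2A, GADD45A, GADD45B, BTG2 and RPRM, the last with only 4 and 12 reads. CDKN2C, the p18 inhibitor of CDK4 and CDK6, had 721 reads (15.5 RPKM) in siNC and 1429 (37.5 RPKM) in siLINP1, a log2 fold change of 1.20 (1.07 to 1.33), and CDKN2A had 144 and 238 reads (0.93). CDKN1A, the p21 inhibitor, went the other way, with 15108 and 9682 reads at 304 and 239 RPKM, −0.43 (−0.47 to −0.40). SFN (264 and 138, −0.73) and CDKN2D (408 and 229, −0.62) were lowest, and WEE1, the kinase that holds CDK1 inactive, had 551 and 555 reads (0.22, interval 0.05 to 0.39).

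The lists of S phase genes and of G1 cyclins and kinases stood nearer the background than the mitotic genes. For 53 S phase genes the difference from the median of all genes tested was −0.05, with 20 intervals below 0 and 10 above. The shares for genes with at least 100 reads were 33.4% below and 28.8% above. GINS2 (139 and 67 reads, −0.84) and CLSPN (753 and 377, −0.79) were lowest, NASP (1457 and 1906, 0.60) and RRM2 (1417 and 1646, 0.43) were highest, and the replication clamp PCNA had 1905 and 1100 reads (−0.58). For 15 of 16 genes with at least 10 reads in the list of G1 cyclins and kinases, the difference was 0.09. There 3 intervals lay below 0 and 4 above. CDK6 had 3968 and 5813 reads (0.76), and CCNH, whose role is not confined to G1, had 714 and 898 (0.54). CCND1, cyclin D1, had 17993 and 14258 (−0.13), and CCNE2 79 and 60 (−0.19). E2F2 had 76 and 43 reads (−0.61).

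Reads of 13 members can be shared with an overlapping gene or a near-identical copy, since the strand setting of the counting is not given in the sources used here. Of these, 11 overlap another gene with at least 10 reads, among them CDC25C with FAM53C, FOXM1 with RHNO1, KIF20A with CDC23 and BUB1B with the read-through gene BUB1B-PAK6, which had 74 and 20 reads. Copies took few reads: KIF4B, a copy of KIF4A, had 2 and 1, PTTG2 had 0 and 0, and PTTG3P had 0 and 1. Without the 13 members the median of the rest was −0.21.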

How the data were processed

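A single siNC and a single siLINP1 library of HSC-1 RNA were compared. The authors ran total RNA on a HiSeq instrument, used Tophat2 with GRCh37/hg19 and HTSeq for gene counts; per the labels the submitters' processing notes also name HISAT, HISAT2 and Bowtie2. Versions, annotation, strand setting and counting mode are not given in the sources used here. The deposited read counts are raw. The RPKM values that the authors deposited equal count over gene length and total count. The table holds 12 other per-sample columns, not used here.

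Size factors (median of ratios) were used to scale the counts. A gene needed 10 reads over both libraries. Log2 fold changes had no pseudocount. Intervals are 95% Clopper-Pearson and cover counting error only; intervals of pair ratios are exact conditional odds-ratio intervals. A gene was called past 1.5-fold. With 1 library per group no test was made. Calculations were tested on simulated data.

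The rule names the members by role and uses no measured value, but members and lists were chosen with earlier results of these data known. All 40 members may be named. Full values are given for members whose interval excludes 0 and for the 3 with the highest and the 3 with the lowest RPKM in siNC, and of each list the 2 highest and 2 lowest genes with at least 100 reads are named, with LINP1, regulators, inhibitors and copies. Pairs and shown promoters were chosen after their values were seen, as were PCNA, LIN52, RBBP4, E2F5, RBL1 and RBL2. The same holds for GADD45A, GADD45B, BTG2, RPRM, KRT6A, DSG3 and PKP1 as named genes. List names were matched by symbol, 3 of them by RefSeq synonym. Promoters are from RefSeq on GRCh38.p14 and gene positions from the deposited table on GRCh37; none was converted.

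Alternatives were total-count (CPM) scaling, edgeR 4.0.16 TMM factors, size factors from genes with at least 1000 reads or from protein-coding genes, pseudocounts of 1 and 5, minimums of 1, 100 and 1000 reads, leaving out members that can share reads and, added after seeing the data, a lowess trend with GC content and length (fraction 0.3; 89.8% of 13336 genes with at least 100 reads had a GC value). The work used R 4.3.3 and, under Python 3.11.15, scipy 1.17.1, pandas 2.3.3, statsmodels 0.14.6 and numpy 2.4.6.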

Additional observations from a re-analysis of the deposited data

How the results depend on the processing

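The median of the 40 mitotic genes, −0.23 as reported, stayed below 0 under all settings run. It was −0.15 with CPM scaling, −0.21 with TMM, −0.19 with size factors from genes with at least 1000 reads, −0.20 with those from protein-coding genes, −0.21 without members that can share reads and −0.26 after the trend with GC content and length, which was chosen after seeing the data. The log2 fold change of the summed reads was −0.16 with CPM, −0.22 with TMM, −0.21 with the factors from genes with at least 1000 reads and −0.21 with those from protein-coding genes. Members with the interval above 0 numbered 3 with CPM and 2 with each of the size factors from genes with at least 1000 reads and from protein-coding genes, TPX2 and PRC1 each time and ECT2 with CPM. Members with a log2 fold change below 0 numbered 32 under each of the 4 other scalings. Members with the interval below 0 numbered 23 with CPM and 27 with TMM, as with both other kinds of size factor. A scaling moves the log2 fold change of every gene by the same amount. TTK was no longer past 1.5-fold with CPM and with the factors from genes with at least 1000 reads.

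The minimum of reads moved the background: 21.9% of 29515 genes were lower and 23.9% higher by more than 1.5-fold with a minimum of 1 read, and 3.56% and 5.47% of 7071 genes with 1000 reads, where 36 members remained. Depth sets the width of the intervals, up to 0.31 on each side for CDC25C, and the spread between cultures is unknown. Replicate libraries would be needed to test any member.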
